A study of Homo sapiens with 4 samples.

Results

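Genes of glycolysis and of the response to low oxygen were followed in LM2 cells after knockdown of hnRNPM. The members were 39 genes, among the 36525 genes of the deposited table: 16 glycolytic enzymes, 7 regulators and transporters of glycolysis, 13 other targets of the hypoxia-inducible factors (HIF) and 3 HIF subunits. They were chosen by what they are known to do and found by symbol, with earlier results of these data known. LM2 is a clonal, lung metastatic line derived from MDA-MB-231, a mesenchymal human breast cancer line. The 4 libraries were 2 of control cells and 2 of hnRNPM knockdown cells, all from LM2 in medium with serum and all collected at 48 h. For the silencing agent the labels say shRNA in one place and siRNA in another. Whether the libraries of a group are separate cultures is not stated, so the p-values measure only the spread between these libraries, which may be technical.

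Glycolysis turns glucose into pyruvate in the cytosol, and lactate dehydrogenase turns pyruvate into lactate, which leaves the cell through monocarboxylate transporters. The HIF proteins are pairs of an oxygen-sensitive alpha subunit and the stable partner ARNT. With oxygen present, prolyl hydroxylases of the EGLN family mark the alpha subunit for destruction through the VHL ubiquitin ligase, so HIF is controlled largely at the protein level, which RNA does not show. When oxygen falls, HIF binds the letters ACGTG or GCGTG near its targets, among them many glycolytic genes, the angiogenic factor VEGFA and carbonic anhydrase 9. Breast cancer cells of the MDA-MB-231 type are known for high glycolysis also with oxygen present. Total RNA per gene was measured, so the splice forms of PKM cannot be told apart here, nor fewer cells from less RNA per cell.

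The HIF-binding letters stood before members that fell and before members that rose. Upstream windows of 250 bases were taken from RefSeq (GRCh38.p14; the authors' build was hg19) for 34 of the 39 members. Of their 62 windows, 37 (59.7%) held ACGTG or GCGTG on either strand, against 43.2% of all 35116 windows. Counted by gene, 28 of 34 members (82.4%) had a match in at least 1 window, against 47.4% of all 27305 genes, a count that grows with the number of windows a gene has. Overlapping matches were counted as 1 stretch, as in the palindrome CACGTG, where ACGTG lies on both strands. Several members have many windows that overlap, and a match is a description, not a binding site. The windows of 3 members that fell (ENO2, GAPDH, DDIT4) and 3 that rose (CA12, P4HA1, EPAS1) are shown, 5′ to 3′ along the gene up to the base before its start, with each match in capitals (CACGT and CACGC are the same letters read on the other strand). Each of the 6 has a single RefSeq start, a call below and at least 1 match. Members with a single start and 0 matches (ARNT, EGLN3, LDHB, PGAM1, PKM and SLC2A1) are not shown. Nor is ENO1, which fell and had 2 matches before its single start. VEGFA, NDRG1, SLC2A3, BNIP3L and SLC16A1 had no window.
ENO2 (chr12:6914330-6914579, plus strand): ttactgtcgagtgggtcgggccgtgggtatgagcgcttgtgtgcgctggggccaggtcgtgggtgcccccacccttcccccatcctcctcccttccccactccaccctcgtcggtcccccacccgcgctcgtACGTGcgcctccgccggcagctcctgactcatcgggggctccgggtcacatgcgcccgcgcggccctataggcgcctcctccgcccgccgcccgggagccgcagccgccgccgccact
GAPDH (chr12:6535014-6535263, plus strand): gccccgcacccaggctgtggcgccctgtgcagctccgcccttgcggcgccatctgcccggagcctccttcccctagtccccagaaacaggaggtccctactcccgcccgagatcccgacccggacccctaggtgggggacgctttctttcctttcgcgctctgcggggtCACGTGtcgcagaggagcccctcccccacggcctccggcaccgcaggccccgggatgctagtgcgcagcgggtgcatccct
DDIT4 (chr10:72273674-72273923, plus strand): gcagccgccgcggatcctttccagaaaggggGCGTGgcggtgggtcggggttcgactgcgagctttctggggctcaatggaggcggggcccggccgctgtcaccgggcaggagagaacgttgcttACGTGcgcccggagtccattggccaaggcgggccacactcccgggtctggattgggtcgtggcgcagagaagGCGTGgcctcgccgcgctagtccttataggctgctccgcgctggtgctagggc
CA12 (chr15:63381847-63382096, minus strand): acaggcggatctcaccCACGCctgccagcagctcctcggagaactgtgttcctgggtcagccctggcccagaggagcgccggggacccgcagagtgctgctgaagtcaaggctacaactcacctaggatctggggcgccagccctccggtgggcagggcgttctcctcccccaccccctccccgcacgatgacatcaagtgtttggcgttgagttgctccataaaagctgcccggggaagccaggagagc
P4HA1 (chr10:73096867-73097116, minus strand): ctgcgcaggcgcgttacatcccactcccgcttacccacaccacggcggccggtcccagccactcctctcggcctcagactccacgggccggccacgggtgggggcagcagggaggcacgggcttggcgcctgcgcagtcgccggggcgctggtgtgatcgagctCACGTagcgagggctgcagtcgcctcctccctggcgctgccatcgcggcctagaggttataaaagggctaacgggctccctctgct
EPAS1 (chr2:46297157-46297406, plus strand): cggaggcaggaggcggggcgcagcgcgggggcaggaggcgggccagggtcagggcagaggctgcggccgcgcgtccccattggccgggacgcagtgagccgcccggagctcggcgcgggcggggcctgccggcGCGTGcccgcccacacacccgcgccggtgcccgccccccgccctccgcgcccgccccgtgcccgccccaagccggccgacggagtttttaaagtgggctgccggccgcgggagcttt
In these 6 windows DDIT4 had 3 matches, starting 219, 125 and 53 bases before the start of the gene, and the others had 1 each.

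Values were RPKM as deposited, which are reads scaled to transcript length and to a read total. A library held an estimated 16.5 M to 26.6 M reads. HNRNPM itself was at 88.6 and 102 RPKM in controls and at 11.5 and 12.95 RPKM after knockdown, so the target was low in both libraries labelled knockdown. VIM, a mesenchymal marker, lay between 562 and 760 RPKM, and ESR1, the estrogen receptor, at 0.0322 RPKM or less in every library. PGR is listed at 0 in all 4 libraries. Of the other hormone receptor and HER2 markers, ERBB2 was at 7.19 to 9.13 RPKM and GATA3 at 2.29 to 2.55 RPKM. FOXA1 was at 0.0174 RPKM or less. PTPRC, a leukocyte marker, was at 0.0158 RPKM or less. Of 6 genes of other cell types in the table only CD68, a lysosomal protein gene, was above 1 RPKM (26.1 and 29.1 in controls, 7.69 and 8.75 after knockdown). Summed over 6 epithelial markers, levels stood at 14.7 and 16.6 RPKM in controls and at 24.1 and 26.9 RPKM after knockdown, and their part in the results below was not tested.

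Each gene with a mean RPKM of at least 1 was tested with limma on log2(RPKM + 0.5), and a gene "passed", "rose" or "fell" where its Benjamini-Hochberg adjusted p over all 13627 genes tested was below 0.05. A log2 fold change is knockdown minus control on this scale and is too small for genes of low level, and its error is a standard error (SE). Of all genes tested, 14.7% rose and 21.8% fell (36.4% in either direction). In the second library of each group most genes were higher by a similar factor, and the standard errors hold that shared difference. Median-ratio scaling takes it out, and with it 30.8% of genes rose and 30.2% fell (61.0% in either direction). Where the calls as deposited and after median-ratio scaling differ for a member, both are given, for some only by name in the counts of their group. Without a fit named, a call refers to the values as deposited. In values joined by "against" the controls come first, replicate 1 before replicate 2. Overlap of groups, and fits that left out a library, refer to the values as deposited. Several members that overlap there, such as HK1, PFKM, PKM, SLC2A1 and CA9, do not after median-ratio scaling. Of the 39 members 37 were tested, and SLC16A1 and EGLN3 lay below the minimum.

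The genes of both HIF alpha subunits rose, 2 of 3 subunits tested against 14.7% of all genes. EPAS1, which codes for HIF-2 alpha, was at 7.33 and 8.61 RPKM in controls and at 17.1 and 18.9 RPKM after knockdown. That is a 2.26-fold higher mean, from 7.97 ± 0.909 to 18.0003 ± 1.25 RPKM (SD, n = 2), with a log2 fold change of 1.13 ± 0.18 (limma, adjusted p = 2.41e-09). HIF1A, which codes for the alpha subunit of HIF-1, was at 41.6 and 48.1 against 71.3 and 79.8 RPKM, a 1.68-fold higher mean. Its log2 fold change was 0.75 ± 0.17 (limma, adjusted p = 0.000106). For both genes each knockdown library lay above each control library. ARNT, the shared partner, was at 4.57 and 5.36 against 6.33 and 7.21 RPKM, and its log2 fold change of 0.41 missed the threshold (limma, adjusted p = 0.0511; 0.00153 with median-ratio scaling). P4HA1, a member discussed below, lay just inside it at 0.0323. With 1 library left out, EPAS1 passed in all 4 fits, while HIF1A passed only when control library 2 was left out (adjusted p = 0.0357), and not when control library 1 was (0.0676) or when either knockdown library was (0.0606 for library 1, 0.149 for library 2). HIF1A shares 117 exon bases with HIF1A-AS1 on the opposite strand, and that gene was at 24.5 and 29.8 RPKM in controls and at 33.6 and 36.4 RPKM after knockdown. It also shares 148 exon bases with an unnamed gene on its own strand. Whether the authors' counting used strand is not given here, so reads from these shared bases cannot be assigned.

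**Figure D1:**
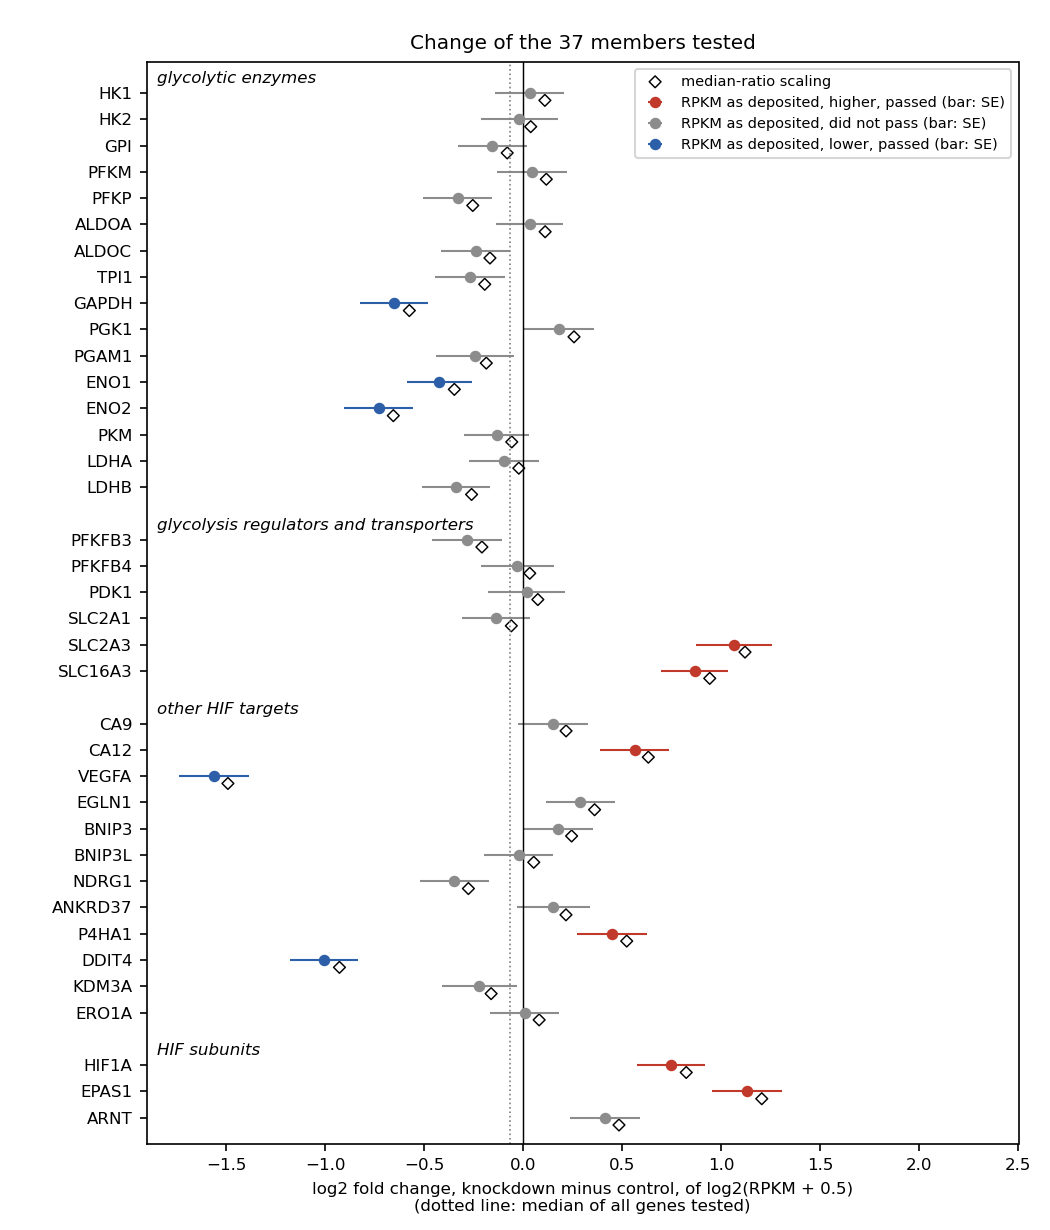
Log2 fold change (knockdown minus control, log2(RPKM + 0.5) scale) of the 37 members tested, by group; filled points are values as deposited with their SE, coloured by whether they passed, open diamonds are the values after median-ratio scaling, and the dotted line is the median of all genes tested. EPAS1 (1.13) and SLC2A3 (1.06) are farthest to the right and VEGFA (−1.56) and DDIT4 (−1.005) farthest to the left.

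HIF targets outside glycolysis moved in both directions. Of the 12 tested, 2 rose, 2 fell and 8 did not pass, near the share of calls among all genes (36.4%). With median-ratio scaling 4 rose (CA9, CA12, EGLN1, P4HA1) and 3 fell (VEGFA, NDRG1, DDIT4). With that scaling 30.8% of all genes rose and 30.2% fell (61.0% in either direction), so these calls too were near the share of all genes. Their median log2 fold change was 0.08, against −0.07 for all genes tested (0.15 against −0.00 with median-ratio scaling).

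VEGFA, the vascular endothelial growth factor, was at 9.33 and 10.6 RPKM in controls and at 2.87 and 3.23 RPKM after knockdown. Its mean was 3.27-fold lower, 9.97 ± 0.908 against 3.05 ± 0.254 RPKM (SD, n = 2), with a log2 fold change of −1.56 ± 0.18 (limma, adjusted p = 3.52e-17). DDIT4, an inhibitor of mTOR complex signalling, was at 72.0 and 85.0 against 36.8 and 40.7 RPKM, a 2.02-fold lower mean, and the log2 fold change was −1.005 ± 0.17 (limma, adjusted p = 8.04e-08). In both genes the groups were far apart, and both passed with any 1 library left out. The level of VEGFA thus fell in the same libraries in which HIF1A and EPAS1 rose.

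CA12, a membrane-bound carbonic anhydrase, was at 3.21 and 3.69 RPKM in controls and at 5.17 and 5.48 RPKM after knockdown, 1.54-fold higher, with a log2 fold change of 0.56 ± 0.18 (limma, adjusted p = 0.00577). P4HA1, a collagen prolyl hydroxylase subunit, was at 9.24 and 11.01 against 13.5 and 14.4 RPKM, 1.38-fold higher, with a log2 fold change of 0.45 ± 0.18 (limma, adjusted p = 0.0323). Neither gene's groups overlapped, but these calls were less firm than those of VEGFA and DDIT4. CA12 passed when control library 2 was left out (adjusted p = 0.0465), but not when control library 1 (0.0938) or knockdown library 1 (0.135) or 2 (0.205) was. P4HA1 passed in none of these 4 fits (0.249 and 0.0829 when control library 1 or 2 was left out, 0.316 and 0.415 when knockdown library 1 or 2 was), nor with empirical Bayes without a trend (0.0678).

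Among targets that did not pass, CA9, the carbonic anhydrase most often used as a hypoxia marker, was at 3.36 and 3.76 RPKM in controls and at 3.63 and 4.38 RPKM after knockdown, and the groups overlapped. ANKRD37, an ankyrin repeat gene, was at 2.08 and 2.46 against 2.27 and 2.90 RPKM, also overlapping. Exons on the opposite strand cover 38.5% of CA9 (ARHGEF39) and 35.2% of ANKRD37 (UFSP2), so both values are uncertain. The mitophagy receptors BNIP3 (2.96 and 3.97 against 3.48 and 4.46 RPKM) and BNIP3L (23.2 and 26.9 against 23.5 and 25.7 RPKM) overlapped between the groups too. So did ERO1A, an oxidase of the endoplasmic reticulum, at 9.22 and 11.1 against 9.61 and 10.8 RPKM. NDRG1, a stress-responsive gene, was at 6.13 and 7.16 against 5.005 and 5.19 RPKM (limma, log2 fold change −0.35 at an adjusted p of 0.107, or of 0.0114 after median-ratio scaling). KDM3A, a histone demethylase, was at 1.77 and 2.09 against 1.49 and 1.67 RPKM and passed in neither fit.

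The oxygen sensors were higher in knockdown libraries without passing. EGLN1, the main HIF prolyl hydroxylase, was at 4.47 and 5.58 RPKM in controls and at 6.04 and 6.39 RPKM after knockdown (limma, log2 fold change 0.29 at an adjusted p of 0.193, or of 0.00976 after median-ratio scaling). EGLN3, a hydroxylase that HIF itself induces, had an estimated 89 and 121 reads in controls against 142 and 151 after knockdown, or 0.289 and 0.393 against 0.651 and 0.692 RPKM. In limma without a filter its adjusted p was 0.107, in a fit where HNRNPM itself reached only 0.0445.

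**Figure D2:**
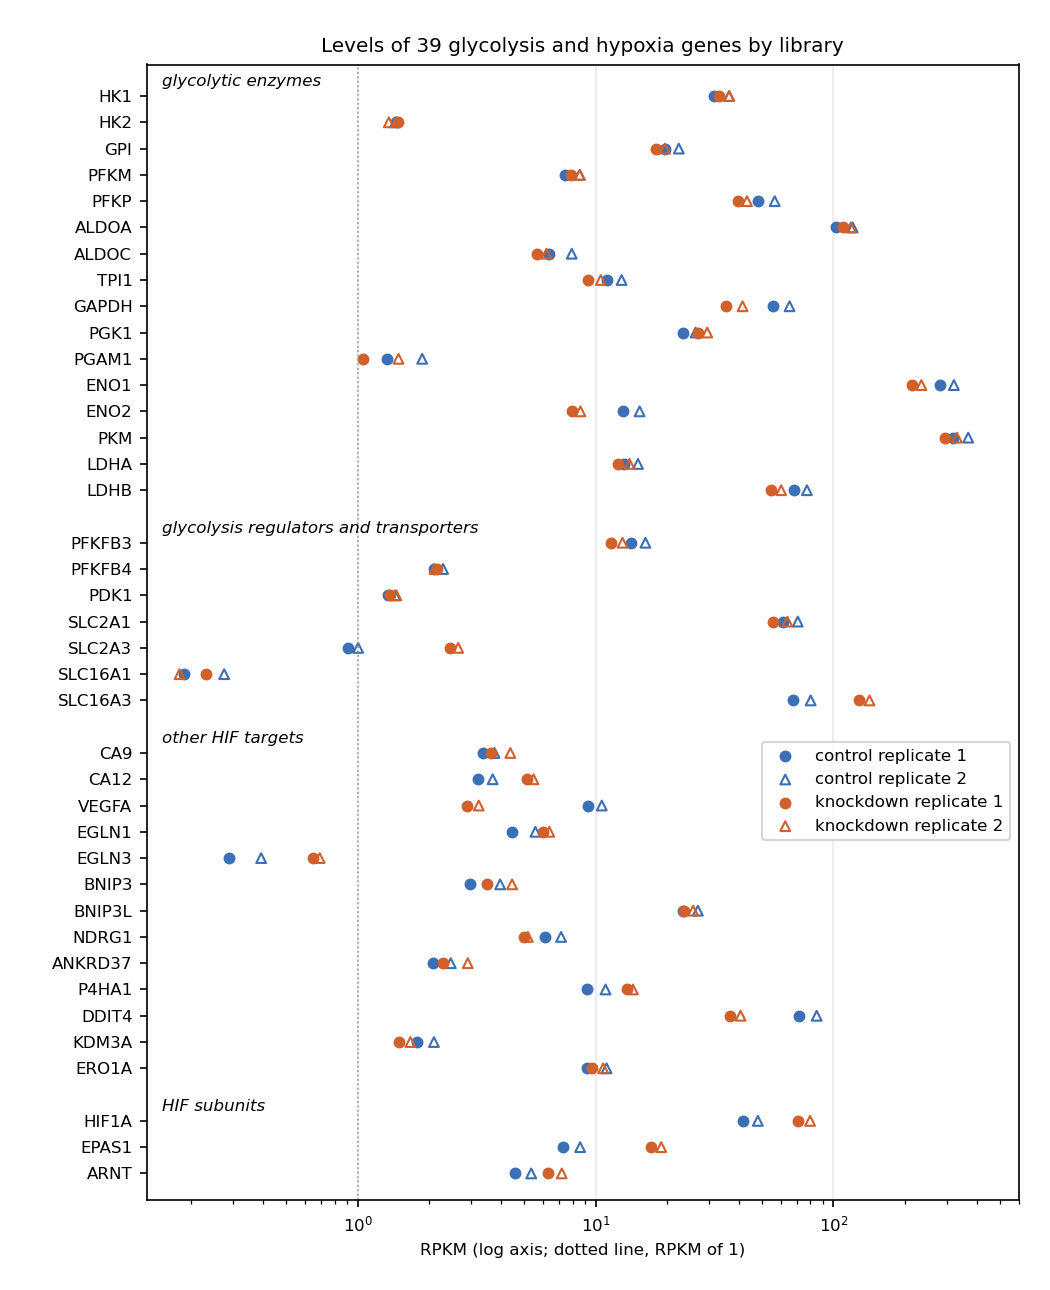
RPKM (log axis) of each of the 39 members in each library; blue is control and orange knockdown, circles are replicate 1 and triangles replicate 2, and the dotted line marks an RPKM of 1. PKM and ENO1 are the highest members and SLC16A1 the lowest, and the orange and blue points of VEGFA, DDIT4, SLC16A3 and EPAS1 lie clearly apart.

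Among the glycolysis genes, a lactate exporter and a glucose transporter rose. Of 6 regulators and transporters tested, 2 rose, 0 fell and 4 did not pass, where 14.7% of all genes rose and 21.8% fell (30.8% and 30.2% with median-ratio scaling). One of the 2, SLC2A3, was tested only through its level after knockdown. The 0 is limma's count, also at an unadjusted p under 0.05, and was 1 (PFKFB3) with median-ratio scaling. The median log2 fold change was −0.01 (0.05 with median-ratio scaling). SLC16A3, the lactate exporter MCT4, was at 67.9 and 80.2 RPKM in controls and at 128 and 142 RPKM after knockdown. Its mean was 1.82-fold higher, 74.1 ± 8.74 against 135 ± 9.71 RPKM (SD, n = 2), with a log2 fold change of 0.86 ± 0.17 (limma, adjusted p = 3.66e-06). It lost its call when knockdown library 2 was left out (adjusted p = 0.0693).

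SLC2A3, the high-affinity glucose transporter GLUT3, was at 0.911 and 1.004 RPKM in controls and at 2.44 and 2.64 RPKM after knockdown, 2.66-fold higher, with a log2 fold change of 1.06 ± 0.19 (limma, adjusted p = 4.39e-07). It passed with any 1 library left out. Its control mean lay below the minimum of 1 RPKM, so it was tested only because it was high after knockdown, and without the filter its adjusted p was 0.0527. Of its 25-base words 36.5% also occur in transcripts of other genes, and its 3 named pseudogenes summed to between 13.1 and 16.1 RPKM, more than the gene itself, so its level is uncertain. SLC2A1, the main glucose transporter GLUT1, was far more abundant, at 61.2 and 70.8 against 55.9 and 64.0 RPKM, and its groups overlapped. SLC16A1, the transporter MCT1, had an estimated 41 and 61 reads in controls against 36 and 28 after knockdown. It was low in all 4 libraries, at 0.178 to 0.274 RPKM.

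Of the enzymes that set the level of fructose 2,6-bisphosphate, an activator of phosphofructokinase, the members PFKFB3 and PFKFB4 did not pass as deposited. PFKFB3 was at 14.04 and 16.2 against 11.7 and 12.98 RPKM (limma, log2 fold change −0.28 at an adjusted p of 0.202, or of 0.0035 after median-ratio scaling). PFKFB4 was at 2.10 and 2.29 against 2.16 and 2.10 RPKM. PFKFB2, which is not among the members, rose and is given below. PDK1, which switches off pyruvate dehydrogenase, was at 1.34 and 1.44 against 1.37 and 1.45 RPKM, with overlapping groups.

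Of the 16 glycolytic enzymes, 0 rose, 3 fell and 13 did not pass, a share of falls (3 of 16) near the 21.8% of all genes tested as deposited. At an unadjusted p under 0.05 limma also gave 0 enzymes that were higher. The median log2 fold change was −0.20, against −0.07 over all genes. With median-ratio scaling, 4 rose (HK1, PFKM, ALDOA, PGK1) and 8 fell (GPI, PFKP, TPI1, GAPDH, ENO1, ENO2, PKM, LDHB), and the median was −0.12. Those 8 of 16 stand against 30.2% of all genes that fell with that scaling. No direction can therefore be given for the enzymes as a group.

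ENO2, the neuronal enolase, was at 12.98 and 15.3 RPKM in controls and at 7.98 and 8.63 RPKM after knockdown. Its mean was 1.70-fold lower, 14.1 ± 1.65 against 8.31 ± 0.464 RPKM (SD, n = 2), with a log2 fold change of −0.73 ± 0.18 (limma, adjusted p = 0.000213). GAPDH, a gene often used as a loading reference, was at 55.9 and 65.4 against 35.4 and 41.5 RPKM, 1.58-fold lower, and the log2 fold change was −0.65 ± 0.17 (limma, adjusted p = 0.000877). ENO1, the main enolase and the second most abundant enzyme, was at 281 and 321 against 213 and 234 RPKM, 1.35-fold lower, and the log2 fold change was −0.43 ± 0.16 (limma, adjusted p = 0.0298). None of these genes had overlapping groups. All 3 also fell with median-ratio scaling, but the fits that left out a library were run on the values as deposited only. All 3 calls depended on having 4 libraries: when control library 1 was left out ENO2 (adjusted p = 0.0242) and GAPDH (0.0459) passed and ENO1 did not (0.103), and in the 3 other fits 0 of them passed. For ENO2, GAPDH and ENO1 in turn, limma's adjusted p was 0.0666, 0.125 and 0.279 when control library 2 was left out, 0.123, 0.286 and 0.524 when knockdown library 1 was, and 0.0575, 0.0828 and 0.306 when knockdown library 2 was. ENO1 also did not pass with empirical Bayes without a trend (adjusted p = 0.0854).

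The other enzymes are given in the order of the pathway. HK1, the hexokinase with the highest RPKM here, was at 31.5 and 36.4 against 32.9 and 36.5 RPKM, and HK2, the inducible form, at 1.44 and 1.44 against 1.48 and 1.35 RPKM, with overlapping groups for both. GPI was at 19.6 and 22.4 against 18.0 and 19.6 RPKM. Of the phosphofructokinases, PFKP was at 48.2 and 56.6 against 39.6 and 43.3 RPKM without overlap (limma, log2 fold change −0.33 at an adjusted p of 0.121, or of 0.00172 after median-ratio scaling). PFKM was at 7.46 and 8.56 against 7.92 and 8.59 RPKM with overlap. The aldolases ALDOA (103 and 121 against 109 and 118 RPKM) and ALDOC (6.37 and 7.94 against 5.68 and 6.22 RPKM) did not pass as deposited. With median-ratio scaling ALDOA rose (limma, adjusted p = 0.016) and ALDOC did not pass.

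In the later steps of the pathway, TPI1 was at 11.2 and 12.9 against 9.25 and 10.51 RPKM, and PGAM1 at 1.32 and 1.87 against 1.05 and 1.48 RPKM. As deposited, PGK1 alone of the 16 enzymes had both knockdown libraries above both controls. It was at 23.4 and 26.3 against 26.95 and 29.5 RPKM (limma, log2 fold change 0.18 at an adjusted p of 0.443, or of 0.00236 after median-ratio scaling). After median-ratio scaling HK1, PFKM and ALDOA had this order too. The share of all genes with this order was not computed. PKM, the pyruvate kinase gene and the most abundant member, was at 320 and 369 against 295 and 330 RPKM, with overlapping groups. LDHA was at 13.2 and 15.1 against 12.4 and 13.9 RPKM and LDHB at 68.4 and 77.4 against 54.8 and 60.3 RPKM (limma, LDHB log2 fold change −0.34 at an adjusted p of 0.111, or of 0.00126 after median-ratio scaling).

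Levels of several of these enzymes are uncertain because near-identical copies exist. GENCODE 29 transcripts of other genes held 45.3% of the 25-base words of ALDOA, 38.8% of PGAM1, 32.3% of LDHB and 24.8% of GAPDH. They held 19.9% of TPI1, 19.2% of HK2 and 16.8% of PGK1, but 1.82% of ENO2. Among the other HIF targets they held 24.2% of BNIP3, whose level is thus uncertain too, but 0 of DDIT4, P4HA1 and CA9. The table lists 38 pseudogenes named after GAPDH, whose levels summed to 3.48 and 3.03 RPKM in controls and at 3.06 and 3.83 RPKM after knockdown, and 10 after PGAM1, summing to 2.48 and 2.84 against 2.76 and 2.33 RPKM. PGAM1 itself was thus below the sum of its copies in all 4 libraries. The authors' treatment of reads with several matches is not given here, and its part in these levels was not tested.

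Ratios of members within a library do not depend on its depth. They are given as a description, since 2 against 2 libraries allow 3 splits and a two-sided permutation p of at least 0.333. With the difference shared within a library taken out by median-ratio scaling, 61.0% of all genes tested passed. How many of all pairs of genes would be apart in such ratios was not computed. The ratio of PFKP to PFKM was 6.47 and 6.61 in controls and 5.004 and 5.04 after knockdown. ENO1 to ENO2 was 21.6 and 20.96 against 26.7 and 27.2, so ENO2 was lower by more than ENO1. LDHB to LDHA was 5.20 and 5.13 against 4.41 and 4.34. These isoenzyme ratios shifted by 0.768, 1.26 and 0.847 times, and HK1 to HK2 overlapped between the groups (21.8 and 25.3 against 22.2 and 27.0).

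The ratio of HIF1A to EPAS1 was 5.68 and 5.59 in controls and 4.16 and 4.22 after knockdown, so HIF1A stayed the more abundant alpha subunit. HIF1A to VEGFA moved from 4.46 and 4.53 to 24.9 and 24.7, the widest shift of the 13 ratios computed. Since HIF1A rose and VEGFA fell, as given above, this shift is no separate result. SLC2A1 to SLC2A3 moved from 67.2 and 70.5 to 22.9 and 24.2, with the uncertainty of SLC2A3 given above. SLC16A3 to BSG, the chaperone that carries MCT4 to the cell surface, moved from 0.224 and 0.228 to 0.625 and 0.621: SLC16A3 rose and BSG fell (303 and 352 against 205 and 228 RPKM; limma, adjusted p = 0.0015). BSG was named after its values were seen, and its call held when control library 1 was left out (0.0474) but not when control library 2 (0.136) or knockdown library 1 (0.29) or 2 (0.124) was. As a share of each library's summed RPKM, the 16 enzymes together took 0.618% in both controls and 0.534% and 0.533% after knockdown, a sum in which PKM and ENO1 weigh most.

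**Figure D3:**
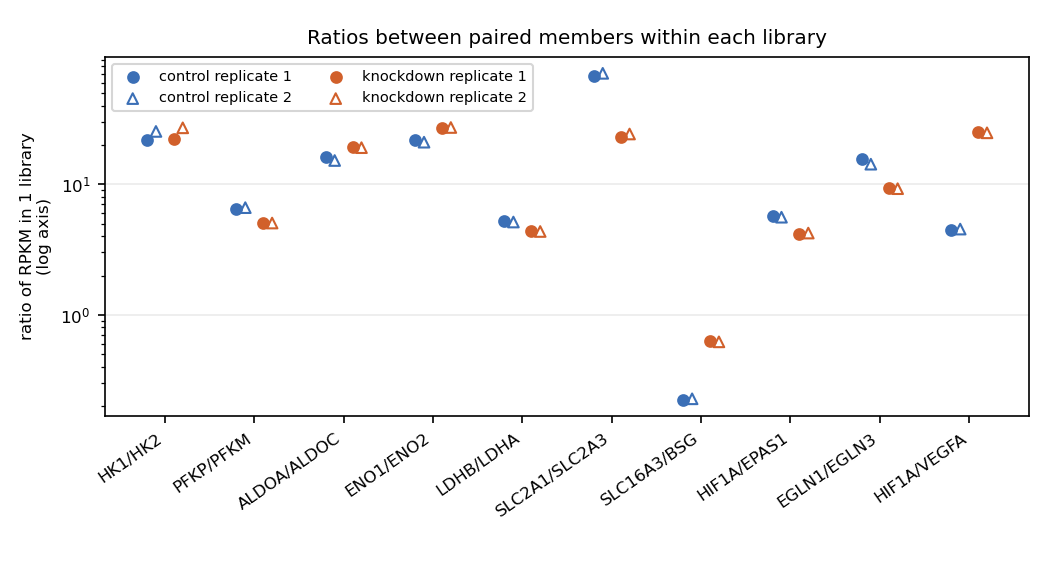
Ratio of the RPKM of 2 genes within each library (log axis) for 10 of the 13 pairs computed (ENO1/ENO3, SLC16A3/SLC16A1 and CA12/CA9 are not drawn); blue is control and orange knockdown, circles are replicate 1 and triangles replicate 2. The groups are apart in every pair shown except HK1/HK2, and HIF1A/VEGFA, SLC2A1/SLC2A3 and SLC16A3/BSG differ most. The share of all gene pairs that are apart was not computed.

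Other genes of the pathway were read from lists chosen with earlier results known, and up to 3 genes with the smallest p are named per list. Their counts stand beside 14.7% of all genes that rose and 21.8% that fell, or 30.8% and 30.2% with median-ratio scaling, and the lists are short. Among 8 further glycolytic genes tested, 2 rose and 2 fell (4 and 3 with median-ratio scaling): PFKFB2, a bifunctional regulator of phosphofructokinase, rose 2.32-fold (1.66 and 2.12 against 4.04 and 4.71 RPKM; limma, adjusted p = 1.33e-07), and ENO3, the muscle enolase, fell 1.69-fold (58.4 and 69.2 against 36.4 and 38.9 RPKM; 0.000106). BPGM, the red cell bisphosphoglycerate mutase, fell 1.86-fold (limma, adjusted p = 0.000393). Among the 4 fits that left out a library, ENO3 passed only when it was control library 1 (0.0272; 0.0749 for control library 2, 0.13 and 0.0681 for knockdown library 1 and 2). It shares 111 exon bases with the abundant PFN1 on the opposite strand, which was at 486 and 570 RPKM in controls and at 333 and 367 RPKM after knockdown.

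Among 39 further HIF-responsive genes tested, 11 rose and 3 fell, which leaves 25 that did not pass (with median-ratio scaling 19 rose and 10 fell), against 14.7% and 21.8% of all genes (30.8% and 30.2% with that scaling), with a median log2 fold change of 0.04 (0.11 with median-ratio scaling). Of the 11, TMEM45A (0.519 RPKM on average in controls and 1.76 after knockdown), named after its values were seen, reached the minimum only through its knockdown level. PLOD2, a collagen lysyl hydroxylase, rose 2.28-fold (11.5 and 13.2 against 26.6 and 29.5 RPKM; limma, adjusted p = 8.51e-10). CITED2, which competes with HIF for its coactivator, rose 2.11-fold (27.1 and 32.2 against 58.5 and 66.7 RPKM; 1.21e-08), as did the repressor BHLHE40 (11.3 and 12.1 against 23.5 and 25.9 RPKM; 3.63e-08), also 2.11-fold. All 3 passed with any 1 library left out. Of 12 genes of oxygen sensing and HIF turnover, 2 rose and 1 fell (5 and 4 with median-ratio scaling). They were ARNT2 (log2 fold change 0.55), the ubiquitin ligase subunit gene ELOC (0.46) and the chaperone HSP90AA1 (−0.58). ELOC and HSP90AA1 passed in 0 of the 4 fits that left out a library (adjusted p from 0.084 to 0.339 and from 0.0617 to 0.327), and ARNT2 only when it was control library 2 (0.0425; 0.116 for control library 1, 0.188 and 0.18 for knockdown library 1 and 2).

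Pyruvate entry into mitochondria held 3 rises and 1 fall among 13 genes tested (6 and 2 with median-ratio scaling), where 14.7% of all genes rose and 21.8% fell. PDP1 and PDP2, phosphatases that switch pyruvate dehydrogenase on, rose. The rise was 1.89-fold for PDP1 (9.68 and 10.7 against 18.4 and 20.1 RPKM, limma, adjusted p = 4.35e-06) and 1.76-fold for PDP2 (2.98 and 3.23 against 5.17 and 5.73 RPKM, 0.000274). The fall was PDPR, a regulatory subunit gene of pyruvate dehydrogenase phosphatase, named after its values were seen. It was at 3.97 and 4.33 against 2.59 and 2.90 RPKM (limma, adjusted p = 0.0126). Exons of an unnamed gene on the opposite strand cover 19.6% of PDPR. PDP2 lost its call when knockdown library 2 was left out (0.0851). MPC2, a subunit of the mitochondrial pyruvate carrier, rose 1.58-fold (10.3 and 11.8 against 16.3 and 18.6 RPKM; 0.00155), but exons of DCAF6 on the opposite strand cover 22.5% of it and it passed in 0 of the 4 fits that left out a library (adjusted p from 0.0513 to 0.248). In the pentose phosphate pathway, 1 of 8 genes rose and 2 fell (3 and 5 with median-ratio scaling), the falls near the share of all genes as deposited (21.8%). PGD, an NADPH-producing dehydrogenase, fell 2.28-fold (14.1 and 15.5 against 6.10 and 6.92 RPKM, limma, adjusted p = 2.54e-09). PGLS fell 1.47-fold (limma, adjusted p = 0.00699) and RPE rose 1.42-fold (0.0367). Exons of KANSL1L on the opposite strand cover 23.8% of RPE, so the level of RPE is uncertain. PGLS and RPE passed in 0 of the 4 fits that left out a library (adjusted p from 0.0629 to 0.418 and from 0.13 to 0.448).

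Among 8 other glucose and monocarboxylate transporter genes tested, 2 rose and 3 fell (4 and 3 with median-ratio scaling). SLC2A8 (1.79 and 2.23 against 3.63 and 4.07 RPKM; limma, adjusted p = 7.48e-05) and SLC2A12 (0.785 and 0.994 against 1.83 and 1.91 RPKM; 0.000548) rose, and SLC16A6 fell 2.90-fold (1.63 and 1.86 against 0.511 and 0.696 RPKM; 4.06e-06). These 3 genes passed with any 1 library left out. SLC2A12 and SLC16A6 reached the minimum only through the group where they were high, and without the filter both lost the call (limma, adjusted p = 0.0754 and 0.0656). Exons of TBPL1 on the opposite strand cover 38.9% of SLC2A12, so the level of SLC2A12 is uncertain.

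**Figure D4:**
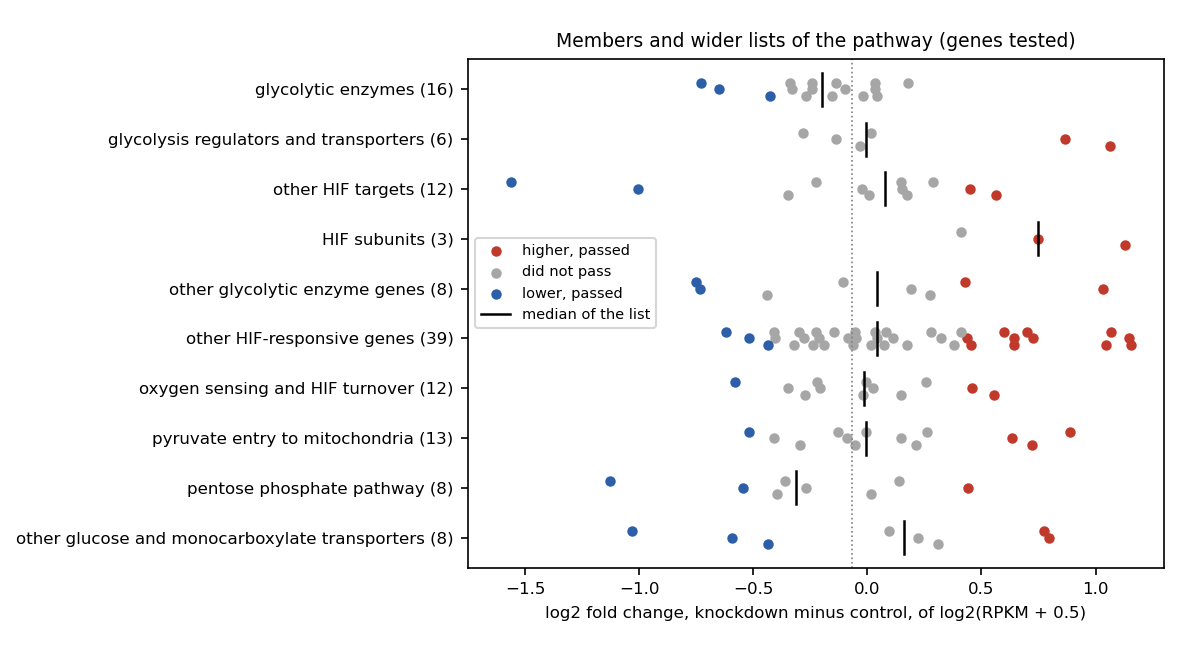
Log2 fold change (knockdown minus control, log2(RPKM + 0.5) scale) of each gene tested, for the 4 groups of members and 6 wider lists, with the number tested in brackets; red points rose, blue points fell, grey points did not pass, black bars are list medians and the dotted line is the median of all genes tested. Each list spreads to both sides of that line except the HIF subunits, whose 3 points lie to its right.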

How the data were processed

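RNA was sequenced from 2 control and 2 hnRNPM knockdown libraries. The authors deposited 1 table of RPKM values with a column for each library. Bowtie 0.12.7 and the build hg19 are named in the submitters' processing notes; the read counter, strand use and multiple matches are not given there. Gene symbols came from a current table (32172 IDs), GENCODE 29 (136 more) or were absent (4217), and the table held 0 genes of chromosomes 20, 21 and 22. Members and lists were chosen with earlier results of these data known. RPKM steps at low values fitted a common total for the 2 libraries of each group, 41.9 M for control and 29.7 M for knockdown (83.7% of 30755 low values were whole reads within 0.1), so depth differences within a group may remain in the values; the estimated reads were used for depth only.

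The test was limma 3.58.1 in R 4.3.3 on log2(RPKM + 0.5) for the 13627 genes whose mean was at least 1 RPKM, with group as the only term, trended empirical Bayes and Benjamini-Hochberg adjustment at 0.05. limma estimated no spread of variance beyond its trend, so very small p-values rest on a shared variance. The fit was tested on simulated data. Named genes were all members, HNRNPM and up to 3 passing genes with the smallest p per wider list. BSG, CA2, PDPR and TMEM45A were named after their values were seen. Alternatives were other pseudocounts (0.1, 1), no filter or a mean of at least 5 RPKM, median-ratio scaling, equal column sums, no variance trend, the replicate number as a block, and leaving out each library.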

Additional observations from a re-analysis of the deposited data

How the results depend on the processing

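VEGFA, DDIT4, EPAS1 and SLC2A3 kept their direction under every alternative that tested them and passed with any 1 library left out; without a filter on low values only VEGFA of the members passed. Of all genes tested, 2000 rose and 2964 fell; 262 and 255 did without a filter, 1047 and 1321 at a mean of at least 5 RPKM, 4192 and 4122 with median-ratio scaling, 3696 and 4638 with equal column sums, and 759 to 1158 and 1057 to 2007 with 1 library left out (807 and 2007 when control library 1 was left out, 1158 and 1057 for control library 2, 1029 and 1130 for knockdown library 1, 759 and 1604 for knockdown library 2). A group left with 1 library was assumed to vary like the other. The fits that left out a library used the values as deposited, and in them SLC2A3 was tested only through its level after knockdown.

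Of the enzymes 0 rose and 3 fell; the falls were 0 without a filter, 8 with median-ratio scaling, 10 with equal column sums (2 rises there, 4 with median-ratio scaling) and 0 to 2 with 1 library left out (2 without control replicate 1). Of the regulators and transporters 2 rose and 0 fell; the rises were 0 without a filter, 1 at the minimum of 5 RPKM and 1 to 2 with 1 library left out, and the falls 1 with median-ratio scaling and 2 with equal column sums. Of the other HIF targets 2 rose and 2 fell; the rises were 0 without a filter, 1 at the minimum of 5 RPKM, 4 with median-ratio scaling, 1 with empirical Bayes without a trend and 0 to 1 with 1 library left out, and the falls 1 without a filter and 4 with equal column sums.

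The replicate number as a block was an alternative only, as the labels do not say what a number shares. Over genes, the difference between the control libraries and that between the knockdown libraries correlated at 0.0307. That value leaves out a difference common to all genes, such as the similar factor in the second libraries. It therefore cannot show that libraries of the same number share nothing. With the block 3109 genes rose and 4318 fell, among them 1 enzyme up and 8 down, and 2 regulators or transporters down; ARNT then passed (adjusted p = 0.0109). Block and median-ratio scaling together gave 3856 rises and 3738 falls, with 3 enzymes up and 7 down, 1 regulator down and 4 HIF targets up.

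Direction turned only for members that did not pass. HK2 (0.037), PFKFB4 (0.032) and BNIP3L (0.053) were above 0 with median-ratio scaling, with or without the block. With 1 library left out log2 fold changes ranged from −0.071 to 0.14 for HK1, −0.068 to 0.028 for HK2, −0.051 to 0.14 for PFKM, −0.082 to 0.15 for ALDOA, −0.082 to 0.020 for PFKFB4, −0.020 to 0.054 for PDK1, −0.0086 to 0.36 for BNIP3, −0.13 to 0.082 for BNIP3L and −0.12 to 0.14 for ERO1A. The smallest log2 fold change called on the deposited values with group as the only term was 0.41 in size; the fit with the block called smaller ones, such as −0.14 for PKM (adjusted p = 0.0465). Apart from the smaller gene and library numbers that a filter or an omission brings, the cause of these differences was not tested.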

Other observations

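CA2, a cytosolic carbonic anhydrase outside the tested genes, had 0.935 and 0.844 RPKM in controls (83 and 75 estimated reads) and 0.129 RPKM in both knockdown libraries (8 estimated reads each). Its direction was opposite to that of CA12. It lay below the minimum level of the test. In limma without a filter it was lower in the knockdown libraries (adjusted p = 0.0483), close to the threshold of 0.05.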
